A study of Oryza sativa Indica Group with 27 samples.

Results

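Seedlings of IR29, a salt-susceptible indica rice cultivar, were compared after 3 h in 200 mM sodium chloride with unstressed seedlings of the same cultivar. All 3 arrays titled as 3 h stress of IR29 and all 3 titled as IR29 controls were used, 6 of the 27 arrays in the series. The seedlings were 7 days old, had grown in liquid medium, and gave total RNA from the whole plant. Salt-treated seedlings stood in the salt solution for 3 h at 28 °C, and the controls stayed in rice growth medium for 6 h at the same temperature. No control kept for 3 h was analysed here, so 3 h of salt and a different time of harvest cannot be told apart for any gene. One text field of the 3 h arrays mentions drought, but every other label names salt, which was followed here. Further arrays served for comparison only: IR29 after 6 h of salt, and Nonabokra and Pokkali, which are salt-tolerant cultivars, after 3 h of salt and unstressed, with 3 arrays in each group. The labels call the arrays biological replicates and do not say how many seedlings each one holds.

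Salt first withdraws water from the root surface and then loads tissues with sodium. In plants the water deficit raises abscisic acid, whose receptors block protein phosphatases 2C, so that SAPK (SnRK2) kinases can act on bZIP factors and switch on genes such as those of LEA proteins and dehydrins. Seedlings at the same time control sodium and potassium carriers, water channels, growth and defence, and a young rice seedling still draws on starch that alpha-amylase breaks down in the seed.

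Each array reported an intensity for 57381 probe sets, short sequences that each stand for a transcript. Changes are differences of log2(intensity + 16), 3 h salt minus control, with the standard error (SE) of a model over all arrays, and each group has 3 arrays. This scale understates changes of dim transcripts. A probe set or gene is said to have risen or fallen where its adjusted p was under 0.05 and its change was 2-fold or more (1 on the log2 scale). Replicates lay close together, with correlations over probe sets of 0.9985 to 0.9989 among the salt arrays and 0.9984 to 0.9989 among the controls, against 0.980 to 0.982 between the groups. The median SD among replicates was 0.08 on the log2 scale for probe sets that reached an intensity of 100.

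Some of the array's control probe sets differed between the groups. An 18S ribosomal RNA probe set had 22.7, 39 and 23.2 on the salt arrays, against 2017, 2160.4 and 3880.5 on the IR29 controls, and a 28S one had 78.5, 196 and 41.4, against 1446, 1407 and 1416. The 5′ probe set of actin had 117, 230 and 129 on the salt arrays, against 359, 397 and 587, a difference of -1.43, while the 3′ one differed by -0.61. A 5′ probe set of the added dap transcript had 169, 169 and 45.5, against 249, 252 and 559. Further controls were lower under salt too, such as 25S ribosomal RNA by -1.05 and the cyclophilin probe sets by -0.54 to -0.58. Some differed little or the other way: a 5′ probe set of Gapdh by 0.25, one of ubiquitin by -0.01, and 5.8S ribosomal RNA, which is dim, by -0.01. These values move with the comparison as a whole, and their part in the changes given below was not tested.

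Of 57194 probe sets tested, 1605 rose (2.81%) and 903 fell (1.58%). With 64 in place of 16 as the added constant, 1035 rose and 574 fell. Of those 2508 probe sets, 2133 (85%) reached an intensity of 100 in a group. Among the rises, 372 were 4-fold or more and 77 were 8-fold or more, while 118 of the falls were 4-fold or more and 32 were 8-fold or more. Changes of 32-fold or more were found for 7 rises and for 0 falls. A much larger number passed at adjusted p alone, 8990 higher (15.7%) and 27590 lower (48.2%), but these had a median absolute change of 0.039 and their split turned with the scaling: centring each array on its median gave 25666 higher and 8653 lower. For this reason a rise or fall below always means 2-fold or more. At the level of genes, each represented by its brightest probe set, 1067 of 17905 rose (5.96%) and 570 fell (3.18%). Among the 2457 genes with an informative name, 226 rose (9.20%) and 90 fell (3.66%), and their median change was 0.03. Those shares are the background for the 3 h rises and falls counted in IR29 gene lists below. At adjusted p alone 933 of them passed higher (38.0%) and 751 lower (30.6%).

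**Figure D1:**
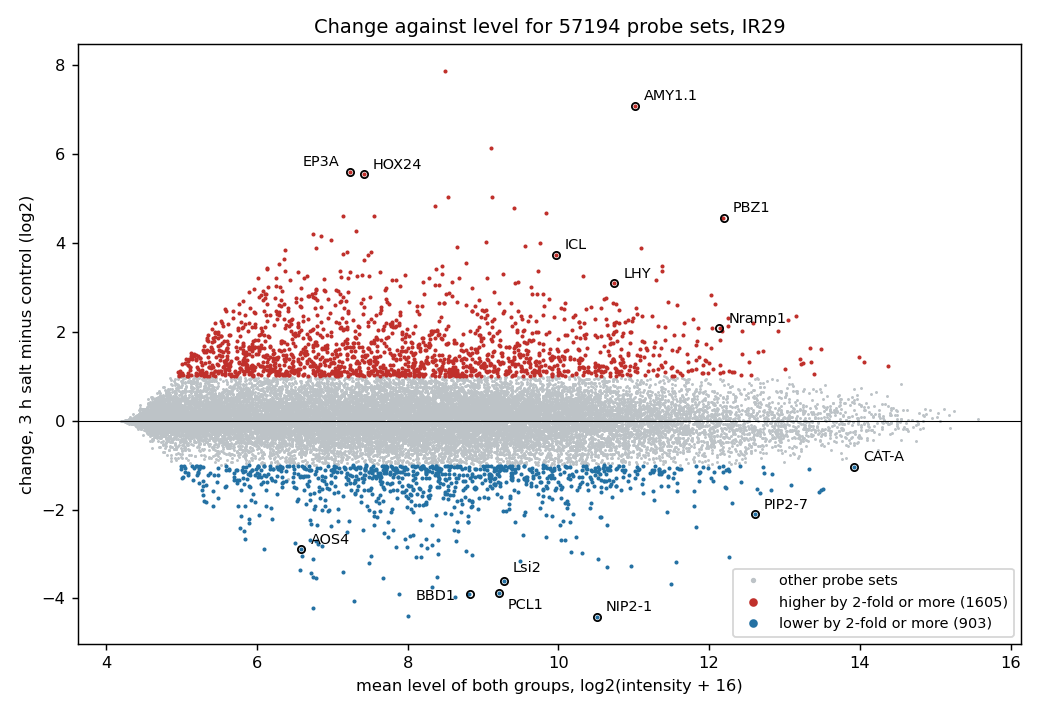
Change at 3 h of salt in IR29 (vertical axis, log2, salt minus control) against the mean level of both groups (horizontal axis, log2 of intensity + 16) for 57194 probe sets. The 1605 rises (red) and 903 falls (blue) of 2-fold or more spread over the whole range of levels, and AMY1.1 and NIP2-1 lie at the edges of the cloud.

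The strongest rises among named genes were in genes of seed reserve use, in the abscisic acid response and in defence. AMY1.1, an alpha-amylase that breaks down starch, had intensities of 25808, 23584 and 23001 on the salt arrays, against 135, 179 and 172 on the controls, a change of 7.09 ± 0.10 (adjusted p = 2.5e-20). EP3A, a cysteine endopeptidase that degrades seed storage protein, had 1068, 1139 and 905 on the salt arrays, against 5.87, 5.35 and 5.31 on the controls (5.61 ± 0.09, adjusted p = 2.3e-19). The control values of EP3A lie at the floor of the array. Alpha-amylase genes resemble each other closely, and cross-hybridisation between them was not tested.

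HOX24, a homeodomain-leucine zipper factor, had 1157, 1166 and 1139 on the salt arrays, against 10.2, 7.65 and 9.13 on the controls (5.55 ± 0.09, adjusted p = 2.5e-19). PM1, a small plasma membrane protein of the AWPM-19 type, had 2020.2, 2166 and 2088 on the salt arrays, against 43.1, 62.1 and 40.6 on the controls (5.04 ± 0.11). EM, an LEA protein of seeds and dry tissue, had 717, 610 and 700 on the salt arrays, against 10.3, 8.52 and 19 on the controls (4.61 ± 0.12). The salt arrays of these genes differed among themselves by far less than the groups did. A dim probe set also assigned to PM1 averaged 6.6 under salt and 6.83 in controls (-0.01, adjusted p = 0.23).

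Defence transcripts formed another part of the leading rises. PBZ1, a pathogenesis-related protein induced by the compound probenazole, had 23570.4, 21341 and 23460.3 on the salt arrays, against 947, 913 and 972 on the controls (4.57 ± 0.07, adjusted p = 6.2e-20). CPS2, a copalyl diphosphate synthase of diterpenoid phytoalexins, had 475, 540 and 502 on the salt arrays, against 15.3, 13.1 and 16.2 on the controls (4.08 ± 0.10). CYP99A2, a cytochrome P450 of diterpenoid phytoalexin synthesis, had 512, 490 and 505 on the salt arrays, against 20.7, 20.8 and 26.4 on the controls (3.75 ± 0.08). CYP71Z7, another P450 of diterpenoid metabolism, stood at 612, 572 and 584 under salt, against 31.8, 32.6 and 34 in controls (3.63 ± 0.07). The 3 salt arrays of each of these genes lay close together.

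The other leading rises came from metabolism, cell wall and the abscisic acid response. ICL, isocitrate lyase of the glyoxylate cycle that turns stored fat into sugar, had 3894, 3567 and 3466 on the salt arrays, against 280, 256 and 240 on the controls (3.74 ± 0.07). PMEI8, an inhibitor of pectin methylesterase, had 1473, 1523 and 1463 on the salt arrays, against 115, 113 and 106 on the controls (3.56 ± 0.05, adjusted p = 6.4e-21). SWEET15, a sugar exporter, had 252, 262 and 244 on the salt arrays, against 6.24, 8 and 7.01 on the controls (3.54 ± 0.10). PP2C59 (3.89 ± 0.07), RAB16D (3.28 ± 0.06) and the COBRA-like wall protein BC1L9 (3.13 ± 0.07) complete the 15 largest rises. The largest rises and falls were picked among genes whose groups do not overlap, so that gap is a condition of the choice and no result. Over all probe sets, every salt array was above every control in 17.5% and below every control in 63.1%.

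**Figure D2:**
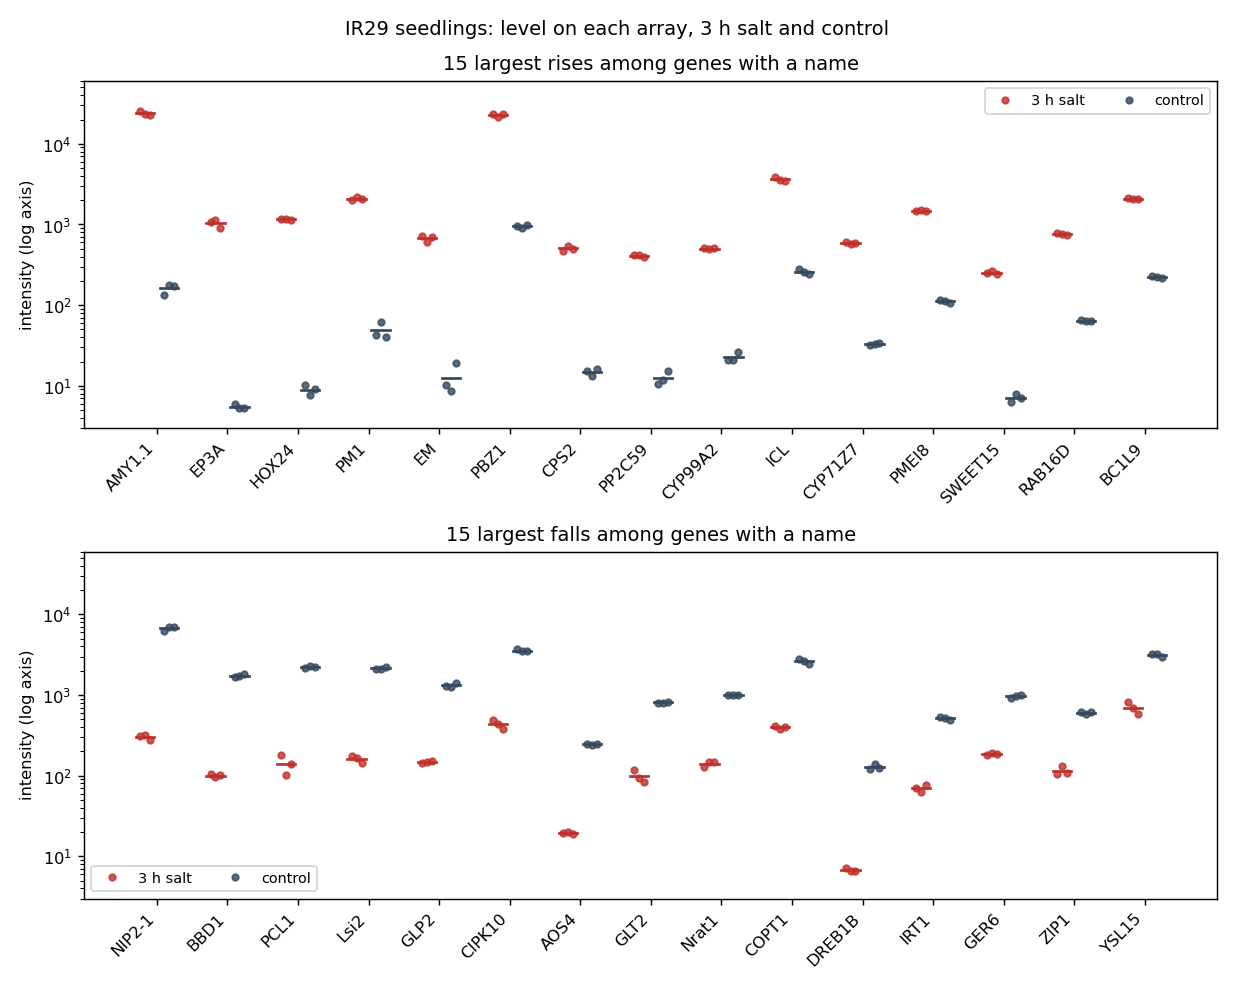
Intensity on each array (log axis) of the 15 named genes with the largest rises and the 15 with the largest falls, with the 3 salt arrays left of the 3 controls for each gene. The genes were chosen with the groups apart; AMY1.1 lies at 23001 to 25808 under salt against 135 to 179 in controls.

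Larger still was the change of a gene with only a locus number, LOC4330830, which was picked out after its values were seen. Its brightest probe set had 6039, 5078 and 5427 on the salt arrays, against 7.84, 7.58 and 7.36 on the controls (7.87 ± 0.05). The tables used here give it no function.

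Silicon uptake led the falls. NIP2-1 (Lsi1), the silicon influx channel of roots, had 309, 317 and 276 on the salt arrays, against 6151, 6933 and 7019.8 on the controls, a change of -4.41 ± 0.07 (adjusted p = 9.8e-20). Lsi2, the silicon efflux carrier that works beside it, had 177, 166 and 143 on the salt arrays, against 2129, 2079 and 2248 on the controls (-3.61 ± 0.12). The salt arrays of each lay close together. In RNA of whole seedlings, fewer cells of a type and less RNA per cell cannot be told apart.

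BBD1, a bifunctional nuclease, had 104, 95.4 and 102 on the salt arrays, against 1684, 1734 and 1801 on the controls (-3.91 ± 0.06). PCL1, a clock factor, had 182, 101 and 139 on the salt arrays, against 2139, 2313 and 2239.6 on the controls (-3.87 ± 0.16), and is taken up with the other clock genes. The salt arrays of PCL1 were more scattered than those of BBD1. AOS4, an allene oxide synthase of the jasmonate pathway, had 19.6, 19.9 and 19 on the salt arrays, against 246, 243 and 250 on the controls (-2.89 ± 0.08). DREB1B, a cold-response factor, had 7.23, 6.66 and 6.57 on the salt arrays, against 122, 138 and 125 on the controls (-2.66 ± 0.08). For DREB1B the salt values are at the floor of the array.

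Some of the remaining large falls were in metal carriers, while other metal genes, given below, rose. IRT1, an iron transporter of the root surface, had 70.9, 63.3 and 76 on the salt arrays, against 527, 522 and 488 on the controls (-2.62 ± 0.14). YSL15, which takes up iron bound to phytosiderophore, had 823, 697 and 577 on the salt arrays, against 3229, 3235 and 2966 on the controls (-2.16 ± 0.10). Nrat1, an aluminium transporter, fell by 2.71, and COPT1, a copper transporter, fell by 2.68, as did the zinc transporter ZIP1 by 2.24. GLT2, an NADH-dependent glutamate synthase that assimilates ammonium, fell by 2.87. The germin-like proteins GLP2 and GER6 fell by 3.02 and 2.28. CIPK10, a kinase of the calcium sensor network, fell by 2.99, and its 3 other probe sets gave -3.11, -2.96 and -2.80.

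Abscisic acid genes were followed from hormone to target. Of 3 genes of synthesis and breakdown, ABA8OX2, which inactivates the hormone, rose (1.83 ± 0.06), while its relative ABA8OX1 averaged 233 under salt and 332 in controls, a change of -0.49 that was under 2-fold. PYL11, the receptor measured, had a change of -0.70, under 2-fold. Among 56 protein phosphatases 2C, 6 rose (10.7%) and 0 fell, with a median change of 0.25, beside 9.20% rises and a median of 0.03 for all named genes. The 3 largest were PP2C59, PP2C68 (2.59 ± 0.07) and PP2C09 (2.59 ± 0.08). PP2C59 had 419, 413 and 392 on the salt arrays, against 10.6, 11.8 and 15.4 on the controls. PP2C68 had 711, 707 and 678, against 87.1, 112 and 110. In both genes every salt array was above every control, as in 17.5% of all probe sets.

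Of the 10 SAPK kinases, 2 rose and 1 fell, where 9.20% and 3.66% of named genes did. SAPK1 had a change of 1.48 and SAPK6 of 1.40. SAPK9 moved the other way, with 271, 273 and 294 on the salt arrays, against 947, 943 and 997 on the controls (-1.73 ± 0.06). Among 21 bZIP factors 4 rose and 1 fell, led by BZIP23, a regulator of abscisic acid responses, which had 3586, 3282 and 3375 on the salt arrays and 839, 841 and 838 on the controls (2.00 ± 0.06). OsbZIP11 was the one that fell (-1.01 ± 0.08). Of 25 homeodomain-leucine zipper factors 5 rose and 0 fell, led by HOX24, Hox22 (2.64 ± 0.07) and HOX12 (1.05 ± 0.09). With quantile normalisation the homeodomain count was 2 and the bZIP count 3.

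All 8 LEA and dehydrin genes rose, by 1.80 to 4.61, with a median of 2.54, where 9.20% of named genes rose. These proteins protect cell contents during water loss. RAB16D had 792, 761 and 738 on the salt arrays, against 65.2, 63.4 and 64.3 on the controls, and RAB16C had 1029, 982 and 990, against 127, 115 and 124 (2.88 ± 0.09). RAB21, the brightest of the named ones, had 7533, 6685 and 6768 on the salt arrays, against 1453, 1467 and 1601 on the controls (2.20 ± 0.07). So the rise spanned genes that were dim before salt and genes already bright. A second RAB21 probe set gave a smaller change, 1.70.

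**Figure D3:**
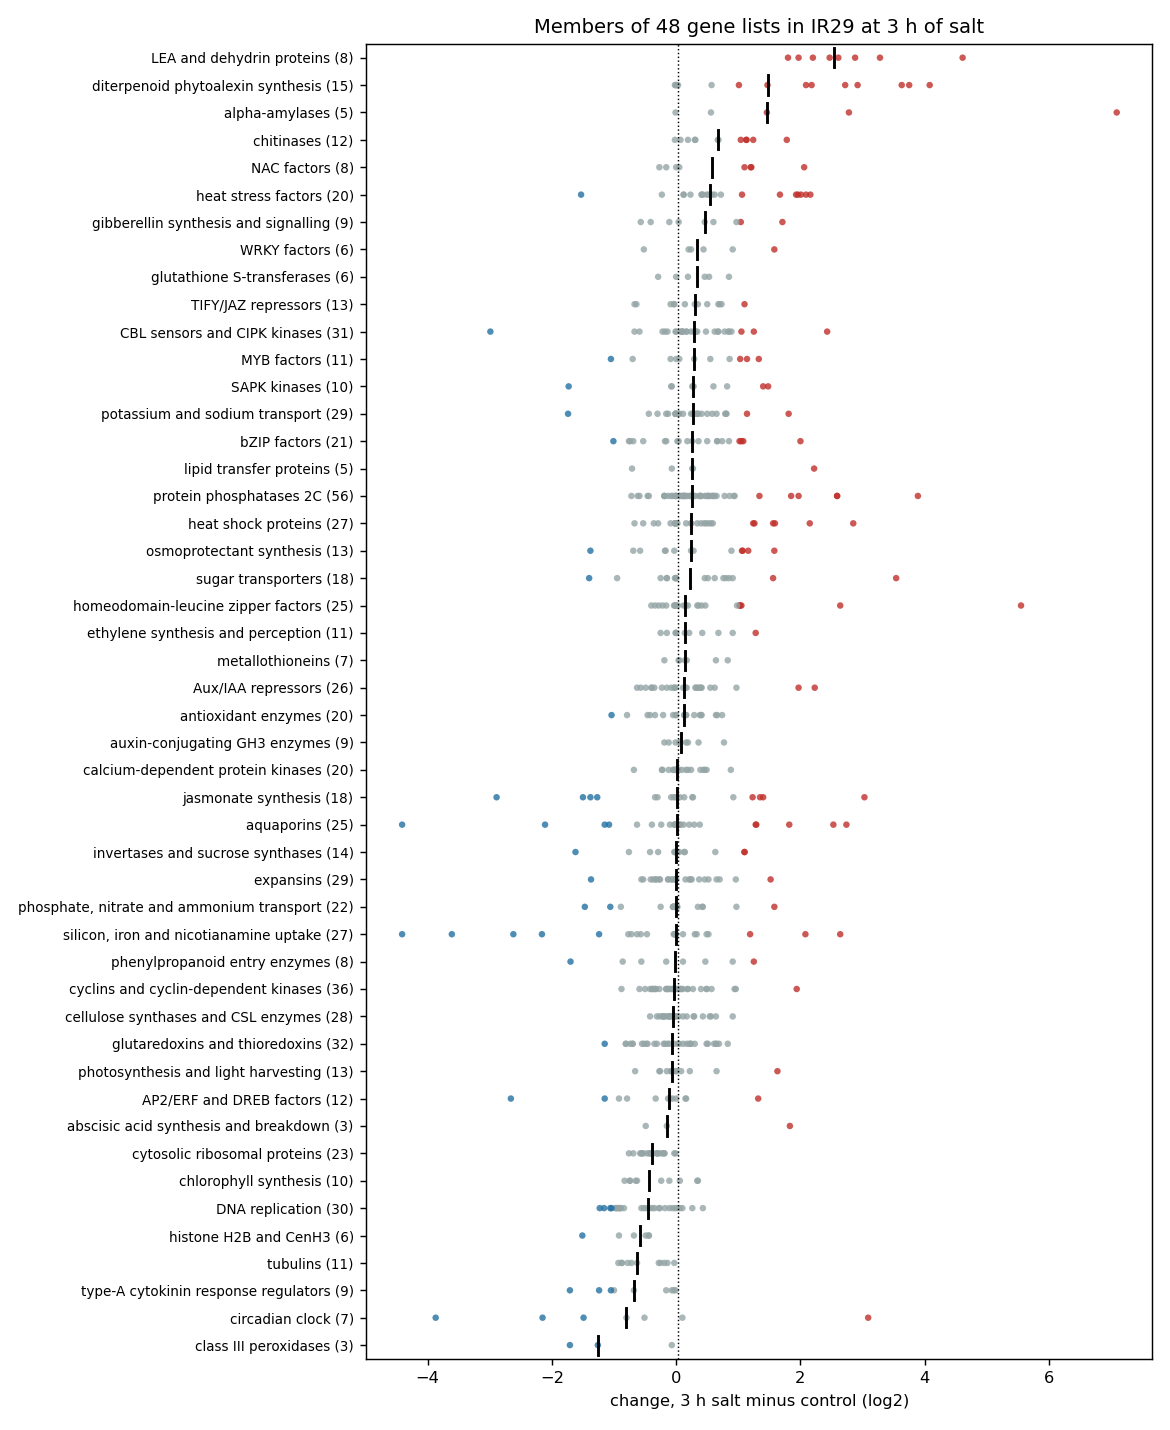
Change of every member (points, log2, 3 h salt minus control) in 48 gene lists, with the median of each list as a black bar and the median of all named genes (0.03) as a dotted line. The LEA and dehydrin genes all lie to the right (median 2.54), the 15 diterpenoid genes have a median of 1.47, and the 9 type-A response regulators a median of -0.68.

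Osmoprotectant and chaperone genes moved in part. Of 13 genes for osmoprotectants 4 rose and 1 fell, beside 9.20% and 3.66% of all named genes. RFS, a raffinose synthase, rose by 1.58 ± 0.06, and P5CS2, of proline synthesis, by 1.07 ± 0.07, although P5CS2 probe sets disagreed: another gave 2.02 and a pair at the floor gave -0.01. The better known P5CS1 averaged 3829 under salt and 2056 in controls, a change of 0.89 that was under 2-fold. TPP1, a trehalose phosphate phosphatase, fell by 1.38 ± 0.07. Of 27 heat shock proteins 6 rose and 0 fell. Small ones led, hsp17.9 with 2466, 2087 and 2208 on the salt arrays against 320, 285 and 291 on the controls (2.85 ± 0.10), then HSP16.9A (2.15 ± 0.11) and HSP24.1 (1.59 ± 0.08). The disaggregase hsp101 rose by 1.56. These rises left most members under 2-fold, with a list median of 0.24.

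Heat stress factors, which drive chaperone genes, had 7 rises and 1 fall among 20 members, with a median of 0.55. Among named genes 9.20% rose and 3.66% fell. HSFA4D had 161, 159 and 160 on the salt arrays, against 24.1, 22.7 and 23.4 on the controls (2.16 ± 0.08). HSFC2A rose by 2.09 and HSFB2C by 2.01, and the other HSFB2C probe sets gave 3.24 and 1.14. HSFC1B fell by 1.53 ± 0.08, with 58.7, 54.7 and 45.2 on the salt arrays against 170, 184 and 195 on the controls. The direction thus differed within the family.

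Of 12 AP2/ERF and DREB factors 1 rose and 2 fell, where 9.20% and 3.66% of named genes did. DREB2A, a factor of drought responses, had 80.4, 66.2 and 77.5 on the salt arrays, against 23, 18.1 and 19.8 on the controls (1.32 ± 0.10). DREB1B and DREB1G (-1.15 ± 0.13) fell, and DREB1A averaged 20.8 under salt and 53.6 in controls, a change of -0.92 that was under 2-fold. Among 8 NAC factors 4 rose and 0 fell, including NAC45 (2.06 ± 0.15), NAC5 (1.21 ± 0.15) and NAC6 (1.20 ± 0.07), each of which has been linked to stress responses in rice. With the replicate number as a block NAC45 is just past the threshold and its call is lost (adjusted p = 0.05). Averaging all probe sets of a gene left 2 of these NAC calls, since some NAC5 and NAC6 probe sets were at the floor. Of 6 WRKY factors only WRKY62 rose (1.58 ± 0.07). Of 11 MYB factors 3 rose and 1 fell, with myb30 at 1.33 ± 0.04 and MYBAS1 at -1.05 ± 0.05.

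Ion transport genes had few 2-fold calls, as had named genes as a whole. Of 29 potassium and sodium transport genes 2 rose and 1 fell, where 9.20% and 3.66% of all named genes did. The median change was 0.27, beside 0.03 for all named genes. AKT1, the inward potassium channel of roots, had 115, 127 and 133 on the salt arrays, against 495, 424 and 443 on the controls (-1.74 ± 0.06, adjusted p = 2.8e-14). HAK7 and HAK11, potassium transporters, rose by 1.81 ± 0.05 and 1.14 ± 0.06, and another HAK7 probe set gave 0.94. HKT1;5, which retrieves sodium from the xylem, averaged 16.8 under salt and 19.9 in controls (-0.13, adjusted p = 0.18). Both values of HKT1;5 are dim. The high-affinity carrier HAK5 was bright, at 12058 under salt and 9870.4 in controls, a change of 0.29.

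Of 31 calcium sensors and kinases of the CBL and CIPK families 3 rose and 1 fell, beside 9.20% and 3.66% of named genes. CIPK5 had 274, 264 and 277 on the salt arrays, against 25.4, 49.1 and 40.8 on the controls (2.43 ± 0.11). CIPK24 (SOS2), which activates sodium export, rose by 1.05 ± 0.09, and CIPK14 by 1.25 ± 0.10. CIPK10, named above, was the one that fell. Of 20 calcium-dependent protein kinases 0 rose or fell by 2-fold in limma's test, although 6 passed higher and 5 lower at adjusted p alone. The 11 are also those with an unadjusted p under 0.05, and in the other lists without a 2-fold call the unadjusted and adjusted counts were equal too. CPK9 had the largest rise of these, 0.88, and CPK1 the largest fall, -0.68.

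Water channels moved both ways: of 25 aquaporins 5 rose and 4 fell, and the median was 0.01. Named genes as a whole had 9.20% rises and 3.66% falls. PIP2-4, of the plasma membrane, had 2405, 2675 and 2466 on the salt arrays, against 431, 436 and 403 on the controls (2.53 ± 0.08). PIP2-7, also of the plasma membrane, had 2505, 3477 and 3016 on the salt arrays, against 12796, 12543 and 13274 on the controls (-2.11 ± 0.10). These are members of 1 subfamily with changes of opposite sign. The groups of both were apart, but over all probe sets salt arrays lay wholly above the controls in 17.5% and wholly below in 63.1%. PIP2-5 (1.82 ± 0.08) and the vacuolar TIP3-1 (2.74 ± 0.14) rose as well. NIP2-1 and the vacuolar TIP2-1 (-1.15 ± 0.05) fell.

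Of 27 genes of silicon, iron and nicotianamine uptake 3 rose and 5 fell, beside 9.20% and 3.66% of named genes. IRO3, a regulator of iron-deficiency genes, had 4352, 4299 and 4036 on the salt arrays, against 663, 677 and 655 on the controls (2.64 ± 0.11). Nramp1, a metal transporter, had 9844, 8767 and 9074 on the salt arrays, against 2298, 2157 and 2072 on the controls (2.08 ± 0.06). YSL13 rose by 1.19 ± 0.12. Iron uptake genes therefore did not move as a block, since IRT1 and YSL15 fell on the same arrays. Of 22 phosphate, nitrate and ammonium transporters 1 rose, AMT3-2 (1.58 ± 0.12), and 2 fell, Pht1;2 (-1.47 ± 0.12) and PHO1-2 (-1.06 ± 0.06). The nitrate reductase NIA1 had 4937, 4685 and 4813 on the salt arrays, against 11762, 11299 and 10478 on the controls (-1.21 ± 0.05). NSHB2, a haemoglobin of plants under low oxygen or nitrate, rose by 2.46 ± 0.11.

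Starch-degrading genes went further than AMY1.1. Of 5 alpha-amylases 3 rose and 0 fell, beside 9.20% and 3.66% of named genes. AMY1.3 had 173, 145 and 149 on the salt arrays, against 8.7, 9.52 and 8.53 on the controls (2.78 ± 0.08), and AMY1.4 had 39.1, 42.4 and 43.1, against 4.87, 5 and 4.77 (1.46 ± 0.01). AMY1.1 was by far the brightest of them on the salt arrays. Among 13 markers of the seed remnant, which hold all 5 amylases, 3 rose (23.1%), all of them amylases, and the summed intensity was 24831 to 27866 under salt and 1896 to 2010 in controls. Storage protein markers of the seed were flat or at the floor: GLB averaged 1365 under salt and 1437 in controls (-0.07, adjusted p = 0.25), GLUA-2 averaged 283 under salt and 264 in controls, and the remaining glutelins and prolamin lay at 14 or below in both groups. The part of seed tissue in the amylase rises was not tested.

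Of 18 sugar transporters 2 rose and 1 fell, where 9.20% and 3.66% of named genes did. Beside SWEET15, SWEET2b rose by 1.56 ± 0.17, and SWEET14 fell, with 264, 334 and 292 on the salt arrays against 709, 856 and 870 on the controls (-1.40 ± 0.10). Of 14 invertases and sucrose synthases 2 rose and 1 fell. SUS4, a sucrose synthase, had 3281, 3055 and 2883 on the salt arrays, against 1427, 1403 and 1432 on the controls, and the invertase NIN1 had 788, 751 and 751, against 387, 340 and 317. The cell wall invertase CIN2 had 60.5, 59.3 and 53.8 on the salt arrays, against 196, 229 and 206 on the controls (-1.62 ± 0.10).

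The type-A response regulators are induced by cytokinin and dampen its signal. Of 9 members 3 fell and 0 rose, where 3.66% and 9.20% of named genes did, and the median was -0.68. At adjusted p alone 8 passed lower, but RR33 (-0.01), RR41 (-0.07) and RR5 (-0.16) among these lie at the floor of the array, and RR42 averaged 691 under salt and 711 in controls (-0.04). RR9 had 220, 229 and 223 on the salt arrays, against 751, 737 and 818 on the controls (-1.71 ± 0.09). RR2 fell by 1.24 and RR1 by 1.05. In all 3 the salt arrays lay below the controls, as they did in 63.1% of all probe sets. The gibberellin, auxin and ethylene lists had 0 to 2 rises each. Of 9 gibberellin genes 2 rose, GA20OX3 (1.71 ± 0.07) and GA20OX2 (1.04 ± 0.12), both oxidases of gibberellin synthesis. Of 26 Aux/IAA repressors 2 rose, IAA9 (2.23 ± 0.09) and IAA20 (1.97 ± 0.10). Of 9 GH3 enzymes, which conjugate auxin or jasmonate, 0 rose or fell by 2-fold in limma's test, and 4 passed higher and 1 lower at adjusted p alone. Of 11 ethylene genes 1 rose, ACO1 (1.28 ± 0.09), which makes ethylene.

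Jasmonate synthesis split evenly, with 4 rises and 4 falls among 18 genes and a median of 0.02. Among named genes the shares were uneven, 9.20% rises and 3.66% falls. AOS3 had 197, 209 and 201 on the salt arrays, against 9.45, 12.5 and 10.1 on the controls (3.03 ± 0.10), while AOS4, an enzyme of the same step, fell. The lipoxygenases LOX9 (1.40 ± 0.09) and LOX2.1 (1.35 ± 0.14) rose, and LOX3 (-1.50 ± 0.09) and LOX1.1 (-1.38 ± 0.09) fell. AOS3 and AOS4, enzymes of a single step, thus had changes of opposite sign. Which of the lipoxygenases listed act in jasmonate synthesis was not tested. Of 13 TIFY/JAZ repressors, which block jasmonate signalling, 1 rose, TIFY11c, with 1901, 1879.9 and 1848 on the salt arrays against 913, 887 and 804 on the controls.

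Diterpenoid and chitinase genes had rises and no falls, while the phenylpropanoid list had 1 of each. Among named genes 9.20% rose and 3.66% fell. Of 15 genes for diterpenoid phytoalexins, antimicrobial compounds of rice, 9 rose and 0 fell, and the median was 1.47. The 5 that did not pass the test, CYP76M5, CYP76M6, CYP76M7, KSL5 and KSL10, lay below an intensity of 7 in both groups, and MAS, at 17.8 under salt and 6.66 in controls, passed at under 2-fold (0.57). The rises beside CPS2, CYP99A2 and CYP71Z7, given to complete the list, were KSL4 (2.92), CPS4 (2.72), CYP99A3 (2.18), CYP76M8 (2.09), CYP71Z6 (1.47) and KSL7 (1.01). Of 12 chitinases, which cut fungal walls, 5 rose and 0 fell, led by Cht6 (1.78 ± 0.15), Cht-1 (1.24 ± 0.10) and Rcb4 (1.13 ± 0.06). Of 8 phenylpropanoid entry enzymes 1 rose and 1 fell, both 4-coumarate CoA ligases: 4CL5 (1.25 ± 0.08) and 4CL1 (-1.70 ± 0.09).

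Most redox lists had few 2-fold calls, where 9.20% of named genes rose and 3.66% fell. Of 20 antioxidant enzymes 0 rose and 1 fell: the catalase CAT-A had 11205, 10658 and 10622 on the salt arrays, against 22697, 21508 and 22564 on the controls (-1.04 ± 0.07). Its other probe sets gave -1.61 and -0.86. CAT-B, a second catalase, averaged 11442 under salt and 7252 in controls, a change of 0.66 that was under 2-fold. Of 3 class III peroxidases 2 fell, PRX74 (-1.71 ± 0.08) and PRX112 (-1.26 ± 0.10), the second on 1 of its 2 probe sets. Of 32 glutaredoxins and thioredoxins 0 rose and 1 fell, GRXC15 (-1.15 ± 0.12). None of 6 glutathione S-transferases or 7 metallothioneins rose or fell by 2-fold in limma's test, and 4 of each list passed higher and 1 of each lower at adjusted p alone.

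DNA replication and histone genes had falls and no rises of 2-fold. Of 30 DNA replication genes 4 fell and 0 rose, and 22 passed lower at adjusted p alone, with a median of -0.46. Among named genes 3.66% fell, 9.20% rose and 30.6% passed lower at adjusted p alone. PCNA, the sliding clamp of the polymerase, had 622, 616 and 614 on the salt arrays, against 1524, 1484 and 1409 on the controls (-1.23 ± 0.07). RPA32, which binds single-stranded DNA, fell by 1.16 ± 0.07, and the helicase subunit MCM5 by 1.06 ± 0.08. With quantile normalisation 9 of the 30 fell by 2-fold, against 4 as deposited. Histone H2B and CenH3 genes, 6 in all, passed lower throughout at adjusted p alone (median -0.58), and H2B.10 fell, with 985, 1318 and 1178 on the salt arrays against 3026, 3663 and 3273 on the controls (-1.51 ± 0.14). The salt arrays of PCNA and H2B.10 all lay below the controls, as they did in 63.1% of all probe sets.

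Of 11 tubulins 9 passed lower at adjusted p alone (median -0.63) and 0 fell by 2-fold, with TUB8 at -0.93 and TUB4 at -0.88. Of 23 cytosolic ribosomal proteins 21 passed lower at adjusted p alone (median -0.39) and 0 fell by 2-fold. RPS26 had the lowest change, -0.76. Among all named genes 30.6% passed lower at adjusted p alone. Over all probe sets the split of such passes turned with the scaling. Of 36 cyclins and cyclin-dependent kinases 1 rose and 0 fell, where 9.20% and 3.66% of named genes did, and their median was -0.03. That rise, CDKE-1 (1.94 ± 0.09), rests on 1 probe set, since another gave 0.26. The summed intensity of 14 markers of dividing tissue was 30335 to 34551 under salt and 49514 to 52148 in controls, and 2 of them fell (14.3%). This sum shares PCNA and the histones with the lists above.

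Wall, lipid transfer and leaf genes showed few calls, as did named genes as a whole (9.20% rises and 3.66% falls). Of 29 expansins, which loosen cell walls, EXPB7 rose (1.52 ± 0.05) and EXPA3 fell (-1.37 ± 0.11). None of 28 cellulose synthase and CSL genes rose or fell by 2-fold in limma's test, and 8 passed higher and 8 lower at adjusted p alone. Of 5 lipid transfer proteins LTP-2 rose (2.22 ± 0.12). Of 13 photosynthesis genes PSAG, a photosystem I subunit, rose (1.63 ± 0.12) on 1 probe set, while another at the floor gave -0.01. None of 10 chlorophyll synthesis genes rose or fell by 2-fold in limma's test, with 2 passing higher and 5 lower at adjusted p alone. Green tissue markers summed to 113031 to 118654 under salt and 120868 to 122545 in controls. The sum for 8 root markers was 29686 to 32243 under salt and 31358 to 32358 in controls. Most of this sum came from NAS2, at 16260.4 under salt and 11578 in controls, and NAS1, at 13117 and 10404. Of the 8, 3 fell, NIP2-1, Lsi2 and IRT1, so the sum hides changes of opposite sign.

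Clock genes changed strongly. The plant clock is a loop in which LHY acts in the morning and represses evening genes such as PRR1 (TOC1) and PCL1, a LUX-type factor. Of 7 clock genes 1 rose and 3 fell, beside 9.20% and 3.66% of named genes. LHY had 5134, 4842 and 4971 on the salt arrays, against 592, 553 and 569 on the controls (3.09 ± 0.11, adjusted p = 2.3e-14). PRR1 had 201, 185 and 200 on the salt arrays, against 971, 904 and 889 on the controls (-2.15 ± 0.07). PRR95 had 2911, 2769.5 and 2728 on the salt arrays, against 8187, 7744 and 7817 on the controls (-1.49 ± 0.09). A dim probe set also assigned to LHY averaged 5.62 under salt and 5.92 in controls. By the brighter probe sets the morning gene was high and the later genes low on every salt array. Of the rest, named to complete the list, GI (-0.80) and PRR37 (-0.51) passed at under 2-fold, and PRR73 had a change of 0.10 (adjusted p = 0.16).

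After 6 h of salt, which matches the 6 h of the controls in medium, 0 of the 7 clock genes had risen or fallen against control, beside 5.90% and 2.56% of named genes. PCL1 averaged 1859.6 at 6 h, close to its control mean of 2230.3 (-0.28, adjusted p = 0.16), and PRR95 averaged 7279, against 7916 (-0.13, adjusted p = 0.25). LHY averaged 1042 at 6 h (0.84). BBD1, among the largest falls at 3 h, averaged 1805 at 6 h, within reach of its control arrays at 1684 to 1801 (0.05, adjusted p = 0.48). The same clock genes moved at 3 h in the tolerant cultivars, LHY by 3.66 in Nonabokra and 3.48 in Pokkali, and PRR1 by -2.61 and -2.11. Salt and the hour of harvest cannot be told apart in these values.

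**Figure D4:**
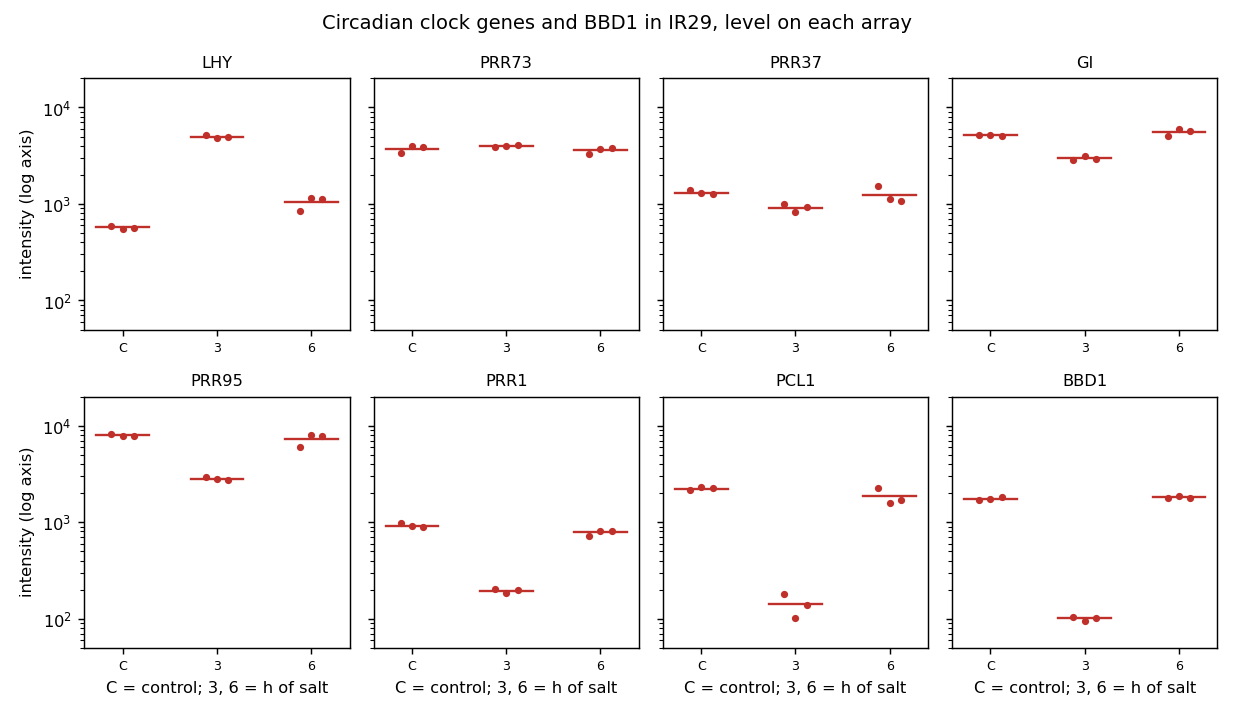
Intensity on each array (points, log axis) and mean (line) of 7 clock genes and BBD1 in IR29 controls (C) and after 3 h and 6 h of salt. LHY is highest at 3 h (4842 to 5134), PRR95, PRR1, PCL1 and BBD1 are low at 3 h, and their 6 h values lie near the controls.

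The 6 h arrays also show which changes were brief. At 6 h against 3 h of salt, 229 probe sets were higher (0.400%) and 393 lower (0.687%) by 2-fold or more. With the replicate number as a block, in a fit of the 6 arrays alone with 2 residual degrees of freedom, 66 were higher and 84 lower. With a pseudocount of 64 the counts were 135 and 217, and with 1 they were 351 and 621. AMY1.1 averaged 6.61 ± 0.831 at 6 h (SD, n = 3), against 24131 at 3 h, a difference of -10.06 ± 0.10, and so lay below the control mean of 162. EP3A averaged 5.24 at 6 h (-5.63 ± 0.09) and CPS2 33.1 (-3.43). PBZ1 averaged 5814 at 6 h, still above its control mean of 944 (6 h minus 3 h, -1.97 ± 0.07). The high AMY1.1 and EP3A levels in IR29 thus belong to the 3 arrays of 1 time.

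Other genes were nearer to their control level at 6 h. SAPK9 averaged 962 in controls, 280 at 3 h and 815 at 6 h. PIP2-7 averaged 12871 in controls, 2999 at 3 h and 10311 at 6 h, while PIP2-4 averaged 423 in controls, 2516 at 3 h and 934 at 6 h. IRO3 averaged 665 in controls, 4229 at 3 h and 1219 at 6 h. All of these 4 differences between 6 h and 3 h passed with 2-fold or more, but under the block those of PIP2-7 (1.79, adjusted p = 0.076) and PIP2-4 (-1.41, adjusted p = 0.071) did not. NIP2-1 averaged 1046 at 6 h, still low, and RAB16D averaged 64.3 in controls, 764 at 3 h and 1598 at 6 h. At 6 h against 3 h, 1 of the 8 LEA and dehydrin genes was higher and 0 lower, and 0 of the 15 diterpenoid genes were higher and 7 lower, beside 0.936% and 1.99% of named genes. Under the block 3 of the 15 were lower.

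The IR29 response was set against that of each tolerant cultivar by testing the difference of the changes. Against Nonabokra the IR29 change was higher by 2-fold or more for 1157 probe sets (2.02%) and lower for 974 (1.70%). Against Pokkali it was higher for 1272 (2.22%) and lower for 790 (1.38%). With a pseudocount of 64 the totals were 1333 and 1289. Both tests use the same IR29 arrays. Among named genes that reach an intensity of 100 in IR29, 59 had a higher and 31 a lower response by 2-fold or more against both cultivars, and the 6 largest each way are described. Control levels of the cultivars differ for many of these genes, so the levels are given beside each difference.

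AMY1.1 showed the largest positive difference of those named, 11.27 ± 0.14 against Nonabokra and 6.06 ± 0.14 against Pokkali. Nonabokra averaged 176 under salt and 3440.1 in controls, and Pokkali 30.5 and 6.79. EP3A differed by 8.64 and 5.60, with Nonabokra at 6.51 under salt and 171 in controls, and Pokkali at 5.24 and 5.18. The 2 genes were therefore high in unstressed Nonabokra and low there after salt, and PBZ1 had a like pattern. PBZ1 differed by 6.86 and 5.92, with means of 1295 under salt and 6402 in controls of Nonabokra, and 555 and 1437 in Pokkali.

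Diterpenoid genes differed in the same direction. CYP71Z7 differed by 7.88 against Nonabokra (12.4 under salt and 522 in controls there) and by 4.94 against Pokkali (32.3 and 104). CPS2 differed by 6.75 (Nonabokra 5.82 and 123) and 4.52 (Pokkali 16.1 and 27.7). CYP99A2 differed by 5.97 (Nonabokra 39.9 and 244) and 4.11 (Pokkali 23.1 and 34.3). In each of these genes salt levels exceeded control levels in IR29 and lay below them in both tolerant cultivars. Of the 15 diterpenoid genes 10 were higher in the IR29 response by 2-fold or more against Nonabokra and 9 against Pokkali, with 0 lower in either, beside 4.44% and 6.23% of named genes higher. At 3 h 8 of the 15 fell in Nonabokra (7.41% of named genes) and 3 in Pokkali (6.31%), and 0 rose in either, where 10.1% and 8.06% of named genes did.

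Negative differences had several forms. DREB1B differed by -3.13 against Nonabokra, which averaged 19.4 under salt and 9.33 in controls, and by -4.29 against Pokkali, at 57.2 and 7.36. So DREB1B fell in IR29 and was higher after salt in Pokkali. DREB1A differed by -3.17 and -3.83, but stayed below an intensity of 100 in IR29 and so is not among the genes ranked. ABA8OX1, an abscisic acid hydroxylase, differed by -2.61 and -3.10: it averaged 1761 under salt and 393 in controls of Nonabokra, 2445 and 385 in Pokkali, and 233 and 332 in IR29. LTP-2 rose in all 3 cultivars and differed by -3.37 (Nonabokra 1442 and 14.5) and -2.84 (Pokkali 3100.0 and 77.5), with IR29 at 104 and 9.7. GLP2 differed by -4.08 (Nonabokra 210 and 92.7) and -3.69 (Pokkali 40.1 and 19.4), and its control level was far higher in IR29, at 1314. For IRT1 the differences were -3.29 (Nonabokra 29.2 and 12.3) and -2.46 (Pokkali 30.3 and 35.8). NIP2-1 fell in all 3, to 1359.7 against 5986 in Nonabokra and 862 against 3455 in Pokkali, so that its differences were -2.28 and -2.42.

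**Figure D5:**
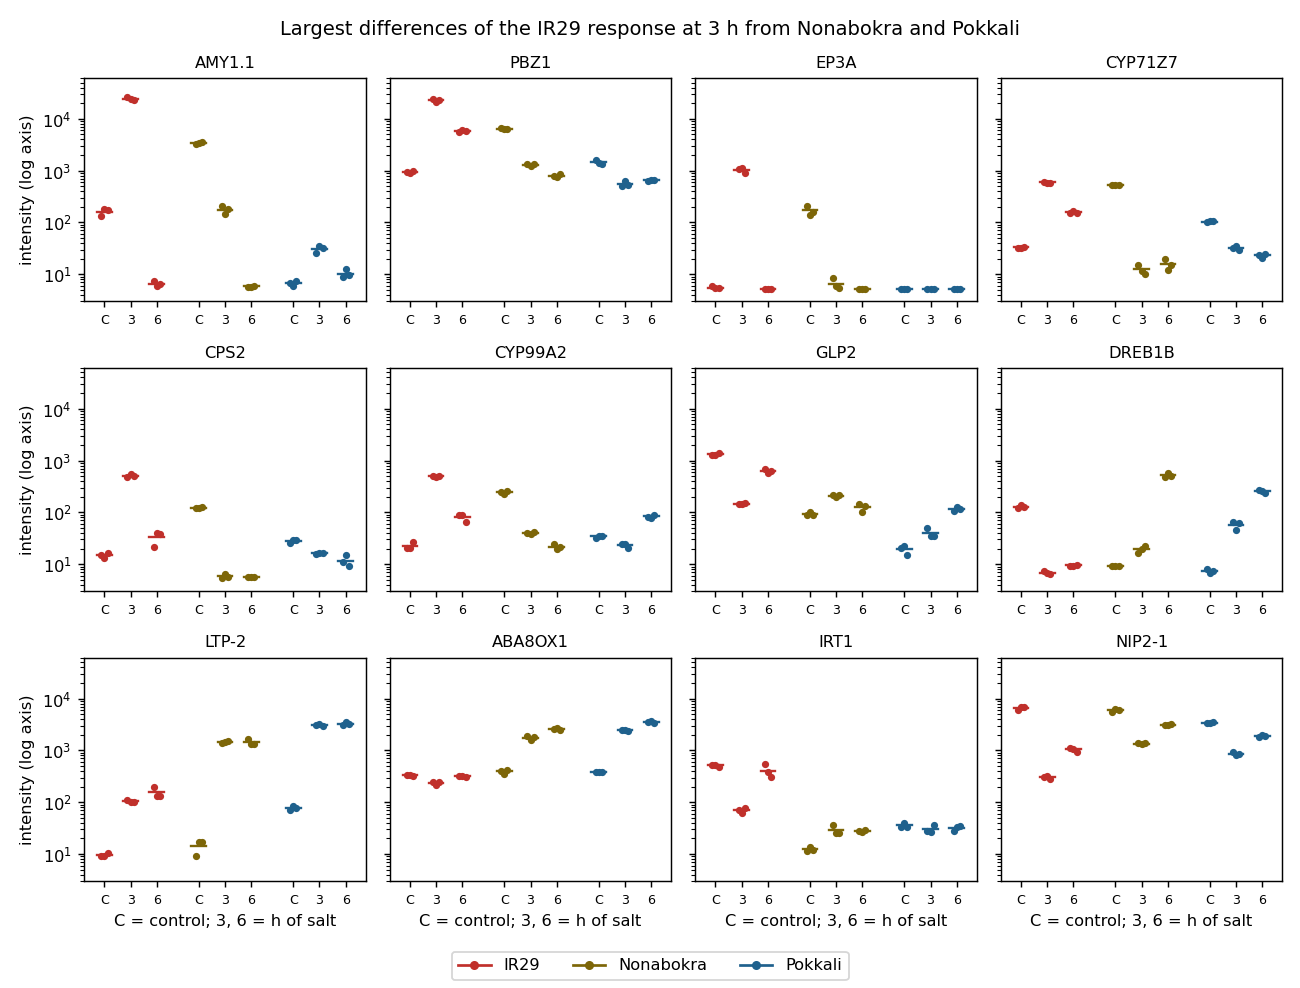
Intensity on each array (points, log axis) and mean (line) in controls (C) and after 3 h and 6 h of salt for IR29, Nonabokra and Pokkali, for the 6 named genes with the largest positive and the 6 with the largest negative differences in response among those that reach an intensity of 100 in IR29, ranked by the smaller of both differences. AMY1.1, PBZ1, EP3A, CYP71Z7, CPS2 and CYP99A2 peak at 3 h in IR29, and ABA8OX1 and LTP-2 reach higher levels under salt in the tolerant cultivars.

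LEA and dehydrin genes took a middle place. Of the 8, 0 had a higher and 6 a lower 2-fold response in IR29 than in Nonabokra, beside 4.44% and 4.88% of named genes. Against Pokkali 5 had a higher and 0 a lower one, beside 6.23% and 3.42% of named genes. RAB16D averaged 764 under salt and 64.3 in controls of IR29, 6817 and 67.4 in Nonabokra, and 7841 and 6764 in Pokkali. RAB21 averaged 6995 and 1507 in IR29, 27939 and 1626 in Nonabokra, and 27526 and 8249.7 in Pokkali. In Pokkali these 2 genes were high before salt, and after salt both tolerant cultivars stood above IR29. EM differed, at 676 under salt in IR29, 558 in Nonabokra and 578 in Pokkali. LIP9 lay between, at 7552, 6679.5 and 9734. The remaining genes of the 8 were lower under salt in IR29 than in both. SAPK9 differed by 1.80 and 1.92, with 187 under salt and 2326 in controls of Nonabokra, and 197 and 2648 in Pokkali. HSFA4D rose in IR29 but averaged 47.5 under salt and 86.2 in controls of Nonabokra, and 72.5 and 187 in Pokkali (differences 2.85 and 3.35).

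Among aquaporins, 2 of the plasma membrane had no difference in response that passed. PIP2-4 differed by 0.09 against each cultivar (adjusted p = 0.49 and 0.51), and PIP2-7 by 0.23 and -0.06 (adjusted p = 0.19 and 0.75). Other aquaporins did differ: beside NIP2-1, TIP3-1 by -2.14 and -1.73, PIP2-5 by 1.34 and 0.79, and TIP2-1 by -0.90 and -1.19. The iron genes IRO3 and Nramp1 were expressed at very different levels: Nramp1 averaged 9228 under salt and 2176 in controls of IR29, 30 and 32.7 in Nonabokra, and 33.8 and 36.9 in Pokkali.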

How the data were processed

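An Affymetrix rice array measured RNA of 27 whole-seedling samples. The deposited values are linear intensities per probe set made by the authors, and per the submitters' processing notes GCOS was the software. How probes were summarised and arrays normalised is not given in the sources used here. Array medians lay at 7.16 to 7.77 over the 6 IR29 arrays, and no scaling was added. Only 30.7% of probe sets reached an intensity of 100. The medians therefore lie near the floor and do not show whether brighter transcripts are scaled alike. The number of arrays limits the precision.

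Values were taken as log2(intensity + 16), without 187 control and reporter probe sets. limma 3.58.1 (R 4.3.3) was fitted with 1 mean per group over 27 arrays (18 residual degrees of freedom), moderated tests, and p-values adjusted by Benjamini-Hochberg across 57194 probe sets. The fit was tested on simulated data with known changes and independent noise. Those data held no array-wide shift, so the test does not bear on the scaling of these arrays. Probe sets were named through the platform annotation and RefSeq symbols: 22436 had 1 gene, 95 several and 34663 none. The brightest probe set by mean stands for a gene.

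Genes named are the 15 largest rises and 15 largest falls with an informative name that passed with 2-fold or more, separated arrays and an intensity of 100 in a group, up to 3 passing genes each way from each of 49 lists, genes fixed singly (2 of these, SOS1 and NHX1, were not matched), and the 6 largest response differences each way, by the smaller of both, with the same intensity condition in IR29. Members and lists were chosen with earlier results of these data known. Genes with only a locus number were to be named by their RefSeq description, and promoters searched for motifs. No descriptions or sequences were at hand, so neither was done. Residuals of salt and control arrays with the same replicate number correlated at 0.1823, -0.0325 and 0.003145, so the numbers were not taken as pairs. Alternatives covered the pseudocount, normalisation, filter, spread, arrays left out and a replicate block.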

Additional observations from a re-analysis of the deposited data

Results flagged for a closer look

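Among named genes that reach an intensity of 100 in IR29, 59 had a higher and 31 a lower response to 3 h of salt in IR29 than in both tolerant cultivars, by 2-fold or more in the test of the difference itself. The 6 largest each way are given here. As the IR29 change minus the Nonabokra change and then minus the Pokkali change, on the log2 scale, the differences were 11.27 and 6.06 for AMY1.1, 6.86 and 5.92 for PBZ1, and 8.64 and 5.60 for EP3A. They were 7.88 and 4.94 for CYP71Z7, 6.75 and 4.52 for CPS2, and 5.97 and 4.11 for CYP99A2. Lower responses in IR29 were -4.08 and -3.69 for GLP2, -3.13 and -4.29 for DREB1B, and -3.37 and -2.84 for LTP-2. The last 3 were -2.61 and -3.10 for ABA8OX1, -3.29 and -2.46 for IRT1, and -2.28 and -2.42 for NIP2-1. In AMY1.1, PBZ1, EP3A, CYP71Z7, CPS2 and CYP99A2 the unstressed Nonabokra level was above the unstressed IR29 level, which enters the difference. For GLP2, DREB1B, IRT1 and, by less, NIP2-1 the unstressed IR29 level was above both tolerant cultivars, which enters too. GLP2, DREB1B and IRT1 controls averaged 1314, 128 and 512 in IR29. They averaged 92.7, 9.33 and 12.3 in Nonabokra, and 19.4, 7.36 and 35.8 in Pokkali. For LTP-2 and ABA8OX1 the unstressed IR29 level was below both.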

How the results depend on the processing

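With a pseudocount of 64 in place of 16, 1609 probe sets rose or fell at 3 h, 1333 differed in response from Nonabokra, 1289 from Pokkali and 352 between 6 h and 3 h. A pseudocount of 1 raised the last to 972. These follow from how the pseudocount scales dim values. The number that passed at adjusted p alone, 36580, was 18732 with the compared groups alone, 20236 with quantile normalisation (8208 higher and 12028 lower) and 19048 without the dimmest 40% of probe sets; median centring turned its split to 25666 higher and 8653 lower. With quantile normalisation 2459 probe sets rose or fell, of which 2275 were among the 2508. The replicate block gave 10435 at adjusted p alone, 2381 at 2-fold, 2077 against Nonabokra, 2037 against Pokkali and 150 between 6 h and 3 h; the cause was not tested. Leaving out an array gave 2440 to 2567, 29336 to 35877 at adjusted p alone, 2047 to 2297 against Nonabokra, 2008 to 2126 against Pokkali and 574 to 664 between 6 h and 3 h. Of 4142 values of 259 named genes, 4046 kept direction and side of the threshold. The changes near 0 turned sign for AMY1.2 (0.02) and ETR4 (0.02) and Cht7 (0.01) with centring, and for ETR4 and Cht7 (0.00 each) with quantile normalisation. Under the block the NAC45 rise, 2.06, no longer passed. Dim probe sets give only compressed changes.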
